A study of Mus musculus with 14 samples.

Results

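The placental prolactin, Psg, Ceacam and cathepsin families of the mouse were followed through 60 of the 21582 probes of a two-colour 22K array. A probe was a member where the array's annotation gave it a single symbol of the numbered Prl, Psg or Ceacam series, or one of Cts3, Cts6, Cts7, Cts8, Ctsj, Ctsm, Ctsq, Ctsr, Tpbpa, Tpbpb and Plac1. The 60 probes covered 54 of the 15094 genes named by a single symbol: 21 probes for 20 prolactin family genes, 15 for 12 Psg genes, 11 for 11 Ceacam genes, 9 for 8 placental cathepsins and 4 for Tpbpa, Tpbpb and Plac1. The rule uses symbols only and no measured value, but it was set with earlier results of these data known. By the RefSeq annotation of mouse build GRCm38.p6, 29 of these genes lie on chromosome 13, where the cathepsins lie together with Tpbpa and Tpbpb; most prolactin genes form another cluster, and Prl2c3 lies apart from it on the same chromosome. The Psg and Ceacam genes account for the 22 on chromosome 7, and Plac1 is on X. The symbols Prl2c4 and Psg24 have no entry of their own there: RefSeq lists them as other names of Prl2c3 and Ceacam3, so those 2 identities are uncertain.

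The RNA came from C57Bl6 mice under 3 feeding conditions. In the alcohol-fed group (7 arrays), dams were exposed to ethanol of 180 to 200 mg/dl from gestational day 15 to 18, and fetuses were delivered on day 19; the sample titles give a longer exposure than the treatment text. In the pair-fed group (7 arrays), dams received a maltose sugar diet without ethanol from day 15 to 18, and the labels give the same delivery day. The reference was one pool of total RNA from 7 animals with free access to food and water, which the sample labels also call weight matched. Each Cy5-labelled sample was hybridised against this Cy3-labelled pool, with no dye swap, so a difference from the pool cannot be told apart from a dye effect of that probe. The labels name no tissue. They do not say whether RNA came from single fetuses, pooled litters or placentas, nor whether the 7 arrays of a group are separate litters, and all p-values rest on the spread among arrays, which may be technical.

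Each value is a ratio on a log2 scale, taken here as sample over pool from the order of the channels. The files do not state that direction, and if it were the opposite every sign below would turn. Ratios carry no level: how strongly a gene was expressed, whether a spot was above background, and whether the RNA held placenta cannot be read from them, so the placental name of these families is their textbook role and not a property shown by these samples. In such bulk RNA, fewer cells of a type and less RNA per cell cannot be told apart. Between 2.57% and 14.6% of the values on an array were placeholders (exactly 0 or the table's maximum) and were treated as missing. Correlations between arrays ran from 0.257 to 0.692. The arrays numbered 2 and 3 of the alcohol-fed group and 2 of the pair-fed group deviated together from the others, and results that rest on them are also given without them.

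The prolactin family in rodents arose by repeated duplication of the prolactin gene, and most of its members are hormones of trophoblast giant cells, spongiotrophoblast or decidua rather than of the pituitary. Some act through the prolactin receptor, while others act on blood vessels, natural killer cells or blood cell precursors. Pregnancy-specific glycoproteins (Psg) are secreted immunoglobulin-like proteins made in large amount by trophoblast, and Ceacam genes encode their relatives, some of them adhesion molecules anchored in the membrane. The placental cathepsins are cysteine proteases that arose in rodents by duplication of a cathepsin L-like gene. Tpbpa marks spongiotrophoblast and its precursors, and Plac1 is an X-linked trophoblast gene.

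Promoter sequences show how closely these duplicated genes resemble each other. RefSeq promoters, from 250 bases before to 50 bases after the gene's start on GRCm38.p6, were found for 46 of the 54 genes. For 7 of these with several starts the first listed was used. The files and labels name no build for the array probes. Between Prl2c3, a proliferin that promotes vessel growth, and Prl7d1, a proliferin-related hormone that inhibits it, 94.4% of aligned positions were identical. Prl2c3 is read from chr13:12800030-12800329 on the minus strand and Prl7d1 from chr13:27716688-27716987 on the minus strand. The set is shown because the pair's promoters are nearly the same. Its mean array values were far apart in alcohol-fed samples (-2.30 and 0.01) and close in pair-fed samples (-0.07 and 0.08). The Prl2c3 values come from a single probe. The probe annotated Prl2c4, by RefSeq another name of Prl2c3, averaged above the pool in both groups, so the contrast is uncertain as to the gene. Capitals mark motifs found by a search of both strands. The motif of GATA factors was searched as AGATAA. That of the AP-1 factors was searched as TGANTCA, and the promoter element called the TATA box as TATAAA. Only these spellings were marked. A near spelling such as TATATAAG, present in the Prl2c3 and Prl7d1 promoters below, stays in small letters. No motif contains another, and overlapping matches form one run of capitals.
Prl2c3: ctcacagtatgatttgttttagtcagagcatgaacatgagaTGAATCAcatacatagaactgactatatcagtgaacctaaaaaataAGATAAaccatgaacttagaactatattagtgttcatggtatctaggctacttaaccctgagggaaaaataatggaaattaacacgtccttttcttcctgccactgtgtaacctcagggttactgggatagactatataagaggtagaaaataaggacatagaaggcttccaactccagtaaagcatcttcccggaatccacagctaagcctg
Prl7d1: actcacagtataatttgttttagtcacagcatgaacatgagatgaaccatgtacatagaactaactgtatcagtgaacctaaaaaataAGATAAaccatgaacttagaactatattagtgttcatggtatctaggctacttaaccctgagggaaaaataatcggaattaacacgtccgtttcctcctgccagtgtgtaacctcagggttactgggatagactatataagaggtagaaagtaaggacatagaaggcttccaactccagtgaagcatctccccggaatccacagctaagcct

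Prl7a1 and Prl7a2 are neighbours whose products, PLP-E and PLP-F, act on blood cell precursors. Their promoters were identical at 75.7% of aligned positions. Prl7a1 is read from chr13:27642444-27642743 on the minus strand and Prl7a2 from chr13:27667987-27668286 on the minus strand. Capitals have the same meaning.
Prl7a1: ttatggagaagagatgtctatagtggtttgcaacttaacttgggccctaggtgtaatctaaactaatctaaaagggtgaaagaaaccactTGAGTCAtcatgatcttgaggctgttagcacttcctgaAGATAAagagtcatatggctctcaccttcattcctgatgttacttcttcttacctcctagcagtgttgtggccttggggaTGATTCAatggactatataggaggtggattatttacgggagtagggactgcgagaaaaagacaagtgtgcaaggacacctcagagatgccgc
Prl7a2: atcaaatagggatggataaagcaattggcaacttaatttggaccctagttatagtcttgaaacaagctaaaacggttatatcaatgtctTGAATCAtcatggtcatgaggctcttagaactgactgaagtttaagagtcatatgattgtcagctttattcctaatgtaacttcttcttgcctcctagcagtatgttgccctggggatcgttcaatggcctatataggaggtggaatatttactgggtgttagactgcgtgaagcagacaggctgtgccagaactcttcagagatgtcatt

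A further set shows 2 genes with some of the lowest ratios in the family, Prl2b1 (chr13:27390797-27391096 on the minus strand) and Prl8a6 (chr13:27438639-27438938 on the minus strand), beside Prl3a1 (chr13:27259239-27259538 on the plus strand), whose ratio was above the pool's.
Prl2b1: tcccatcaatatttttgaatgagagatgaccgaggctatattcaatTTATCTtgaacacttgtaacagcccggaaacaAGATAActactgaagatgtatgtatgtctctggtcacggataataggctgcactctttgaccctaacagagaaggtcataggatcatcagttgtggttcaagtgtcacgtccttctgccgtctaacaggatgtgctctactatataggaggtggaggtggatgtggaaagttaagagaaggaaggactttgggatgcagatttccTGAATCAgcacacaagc
Prl8a6: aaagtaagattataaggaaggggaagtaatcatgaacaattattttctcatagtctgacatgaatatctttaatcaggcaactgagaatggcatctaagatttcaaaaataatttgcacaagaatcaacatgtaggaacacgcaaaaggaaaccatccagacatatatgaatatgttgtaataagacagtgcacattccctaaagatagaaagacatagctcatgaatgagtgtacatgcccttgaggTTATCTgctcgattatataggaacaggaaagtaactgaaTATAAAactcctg
Prl3a1: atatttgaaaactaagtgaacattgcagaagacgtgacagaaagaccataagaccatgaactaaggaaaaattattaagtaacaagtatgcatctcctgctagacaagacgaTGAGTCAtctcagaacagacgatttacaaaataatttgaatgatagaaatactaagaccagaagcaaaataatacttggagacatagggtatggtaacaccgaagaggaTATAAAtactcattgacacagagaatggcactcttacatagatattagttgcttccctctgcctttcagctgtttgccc

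AGATAA was present in 8 of 16 prolactin family promoters, in 6 of 10 Ceacam promoters, in 0 of 9 Psg promoters and in 0 of 8 cathepsin promoters, against 11.2% of 32851 mouse promoters of the same length. TGANTCA was present in 6 of 16 prolactin family, 3 of 9 Psg, 1 of 10 Ceacam and 0 of 8 cathepsin promoters, against 7.81% of all. TATAAA occurred in 3 of 16 prolactin family, 0 of 9 Psg, 4 of 10 Ceacam and 3 of 8 cathepsin promoters, against 13.6% of all. Duplicated promoters are not independent of each other. A match, on either strand and at any position, describes the letters only and not a working element. Absence of a match does not show that an element is lacking, as only these spellings were counted. TGATAA, which differs from AGATAA in its first letter, was not counted. The Psg17 and Psg28 promoters, among other Psg promoters, carry it on the other strand. The Psg promoters were the most alike, with a median identity of 79.6% over 36 pairs and 96.7% between Psg18 and Psg28. Within the prolactin family the median was 51.2% over 120 pairs.

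Of the 60 member probes, 58 had at least 4 values in each group and were tested, among 20876 probes in all. Psg20 and Ctsq were not tested. Psg20 had log2 ratios of 0.44 to 6.90 (median 2.90) on 5 alcohol-fed arrays and 7.35 on the 1 pair-fed array with a value. Ctsq, a cathepsin of giant cells lining the placental sinusoids, had log2 ratios of -1.03 to 4.04 (median 0.93) on 6 alcohol-fed arrays and of -2.38 to 2.23 (median 1.84) on 3 pair-fed arrays. In both genes the values that exist are widely spread.

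Alcohol-fed and pair-fed samples were compared directly to ask which of these genes differ with alcohol beyond the change of diet. None of the 58 member probes passed the threshold (limma, Benjamini-Hochberg adjusted p under 0.05 over all 20876 probes), and none of the 20876 did, so the background is 0%. At an unadjusted p under 0.05, 5 members (8.62%) stood out, against 881 probes in all (4.22%). The groups overlapped in all 58 members, while 24 probes of all tested (0.115%) had groups that did not overlap. The members' median difference was -0.11, beside 0.01 over all probes.

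**Figure D1:**
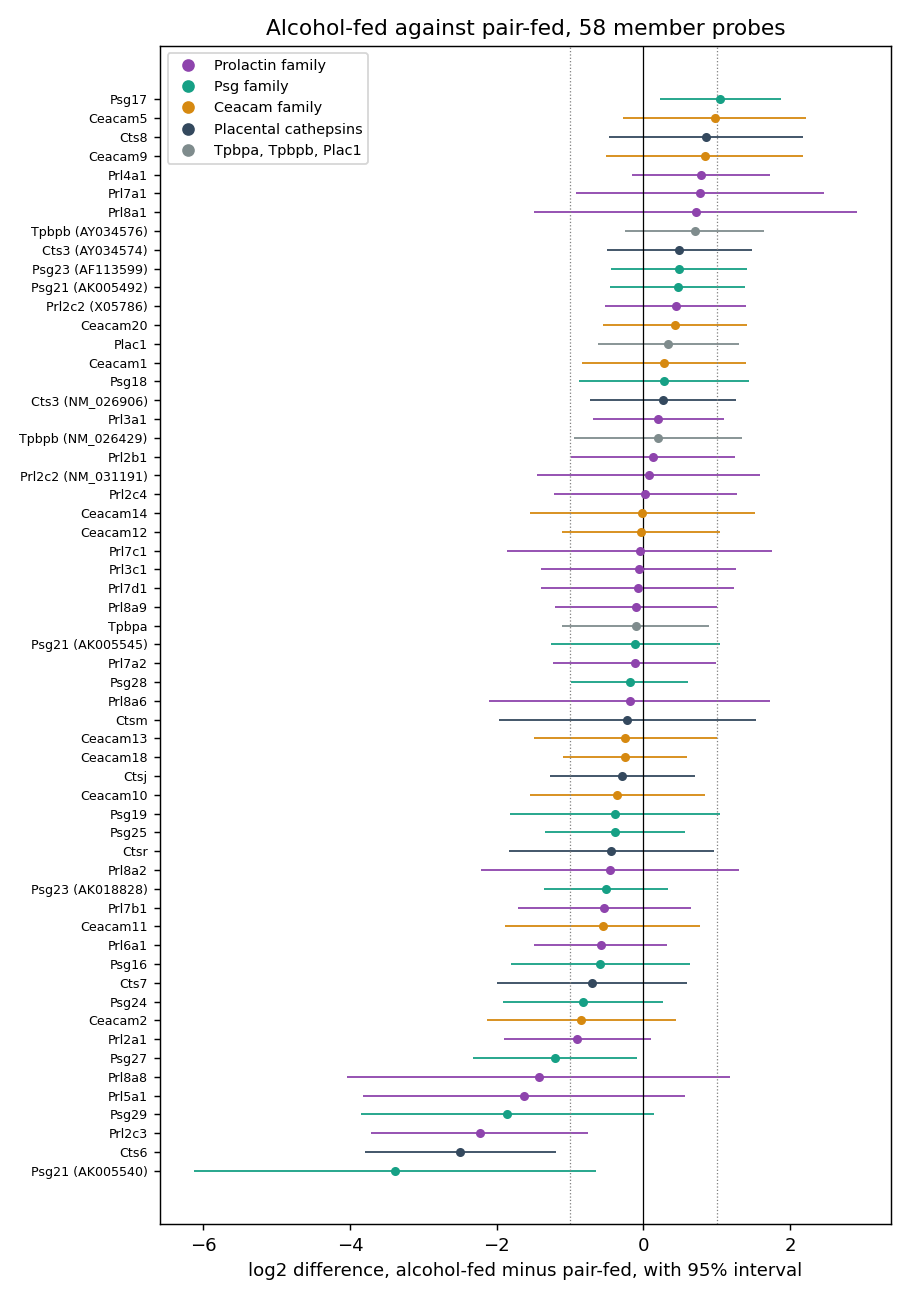
Log2 difference between alcohol-fed and pair-fed samples for the 58 tested member probes, coloured by family, with 95% intervals from limma; dotted lines mark a 2-fold difference either way. The points run from -3.39 for one Psg21 probe to 1.05 for Psg17, and none passed the adjusted threshold.

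Cts6, a placental cathepsin, had the smallest unadjusted p of the members. Its log2 ratio was -5.27, -2.50 and -1.32 (lowest, median and highest of 6 arrays) in alcohol-fed samples and -1.65, -0.65 and 0.98 (of 7 arrays) in pair-fed samples. All 6 alcohol-fed values were below the pool, while 3 of 7 pair-fed values were above it, and the ranges overlapped. The difference was -2.49 ± 0.62 (limma SE), a ratio 5.64 times as high in pair-fed samples, with an unadjusted p of 0.000874 and an adjusted p of 1 in limma.

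Prl2c3, one of the proliferins, followed. Its log2 ratio was -4.13, -1.69 and -1.08 on 6 alcohol-fed arrays and -1.16, -0.49 and 1.44 on 5 pair-fed arrays (lowest, median and highest). The alcohol-fed values lay almost entirely under the pair-fed ones, with a difference of -2.23 ± 0.69 (limma unadjusted p = 0.00586). Proliferin genes are near-identical copies, so which of them this probe reports is uncertain. The probe annotated Prl2c4, which RefSeq lists as another name of Prl2c3, showed a difference of 0.03 ± 0.59. These 2 probes may report the same gene, and they did not give the same answer.

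Psg17 was the one member of the 5 that was higher in alcohol-fed samples. Its protein binds the tetraspanin CD9. The log2 ratio was 1.14, 1.52 and 1.87 on 7 alcohol-fed arrays and -0.70, 0.54 and 1.37 on 7 pair-fed arrays. All 7 alcohol-fed values were above the pool, and their spread (SD 0.29) was narrower than that of pair-fed samples (SD 0.80). The difference was 1.05 ± 0.39 (limma unadjusted p = 0.0151).

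Psg27 had log2 ratios of -2.60, -1.87 and -0.81 on 6 alcohol-fed arrays and -1.81, -0.84 and 1.08 on 7 pair-fed arrays, a difference of -1.21 ± 0.53 (limma unadjusted p = 0.0358). The last of the 5 was 1 of 3 Psg21 probes, AK005540, at -3.39 ± 1.26 (limma unadjusted p = 0.0195) from 4 values in each group. Its alcohol-fed mean included a single value of -6.93. The other Psg21 probes differed by 0.47 ± 0.44 (AK005492) and -0.11 ± 0.55 (AK005545), so the gene's probes did not give one answer.

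Other members with low unadjusted p-values did not pass either threshold. Psg29 differed by -1.86 ± 0.95, Prl2a1 by -0.90 ± 0.47, Prl4a1, whose product binds uterine natural killer cells, by 0.78 ± 0.45, and Ceacam5 by 0.97 ± 0.59. Psg24 differed by -0.82 ± 0.51. The 95% interval left out a 2-fold difference in either direction for 1 member, Psg28 (-0.98 to 0.61), against 8.84% of all probes, and left out a 4-fold difference for 43 members (74.1%), against 76.8% of all probes. For most members a 2-fold difference between the diets was therefore not detectable with this number of arrays, and is not shown to be absent.

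The alcohol-fed and pair-fed samples were each set against the pool of freely fed animals as well. These 2 comparisons share the pool, so similar values in both are not independent. In alcohol-fed samples 24 of 58 members (41.4%) passed the threshold, against 23.5% of all probes. Of these, 6 were higher than the pool (background 8.02%) and 18 lower (background 15.5%). In pair-fed samples 18 members (31.0%) passed, against 21.3% of all probes, with 4 higher (background 7.86%) and 14 lower (background 13.5%). Lower by at least 4-fold were 13 members (22.4%) in alcohol-fed samples, against 6.34% of all probes, and 9 members (15.5%) in pair-fed samples, against 5.22%. The median of the members was -0.64 in alcohol-fed samples, beside 0.01 for all probes, and -0.50 in pair-fed samples, beside -0.03.

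Missing values moved with the lower calls over all probes, and among members mainly in alcohol-fed samples. Of the 26 tested members missing on 1 or more arrays, 14 were lower in alcohol-fed samples (53.8%), against 4 of the 32 with a value on all arrays (12.5%). Over all probes these shares were 26.9% and 10.7%. In pair-fed samples 7 of 26 incomplete members were lower (26.9%) and 7 of 32 complete ones (21.9%), against 20.2% and 10.6% of all probes. Among complete members alone, 28.1% passed in alcohol-fed samples, against 21.4% of all complete probes, and 34.4% in pair-fed samples, against 21.2%. The part of missing values in the results was not tested.

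Without the 3 arrays that deviate together, and with at least 4 values still required in each group, 13 of 53 members (24.5%) passed in alcohol-fed samples, against 14.0% of all probes, and 9 of 53 (17.0%) in pair-fed samples, against 15.9% of all probes. The share of members called in pair-fed samples was then near the background. Of the 6 higher calls in alcohol-fed samples 1 was called again, Psg17, and of the 4 in pair-fed samples 0 were. Of the 18 lower calls in alcohol-fed samples 12 were called again and 4 were not tested, and of the 14 in pair-fed samples 9 were called again and 2 were not tested. With the minimum lowered to 3 values, a setting added after those counts were seen, 16 of 58 members (27.6%) passed in alcohol-fed samples, against 13.8% of all probes, and 10 of 58 (17.2%) in pair-fed samples, against 15.3%. In that setting 15 of 18 and 10 of 14 lower calls were made again, with 1 of 6 and 0 of 4 higher calls. The lower calls tested at that minimum and not made again were Ceacam11 and Psg27 in alcohol-fed samples and Ceacam5, Cts7, Cts8 and Prl7a1 in pair-fed samples.

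Single arrays also decided some calls. Without pair-fed array 4 the members called in pair-fed samples numbered 11, against 18. Higher calls in pair-fed samples, 4 with all arrays, numbered 1 without array 2, 4 or 5 of that group and 2 without array 3 or 7. The call of Prl2c2 by probe X05786 in alcohol-fed samples was lost in 10 of 26 alternative settings, that of Ceacam11 in 7 of 24 and that of Psg28 in 7 of 26. In pair-fed samples the call of Psg23 by probe AF113599 was lost in 16 of 26, that of Cts8 in 8 of 25, and those of Prl3a1 and Prl6a1 in 7 of 26 each. The Psg21 probe AK005540 lost its call in alcohol-fed samples without array 5, where its mean was -1.77, or without array 4, and Plac1 lost its call there without array 1. Psg17, Prl2b1, Prl7a2, Prl2a1, Prl8a2, Prl8a6, Ceacam2 and Cts6 were called in alcohol-fed samples in every setting in which they were tested.

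**Figure D2:**
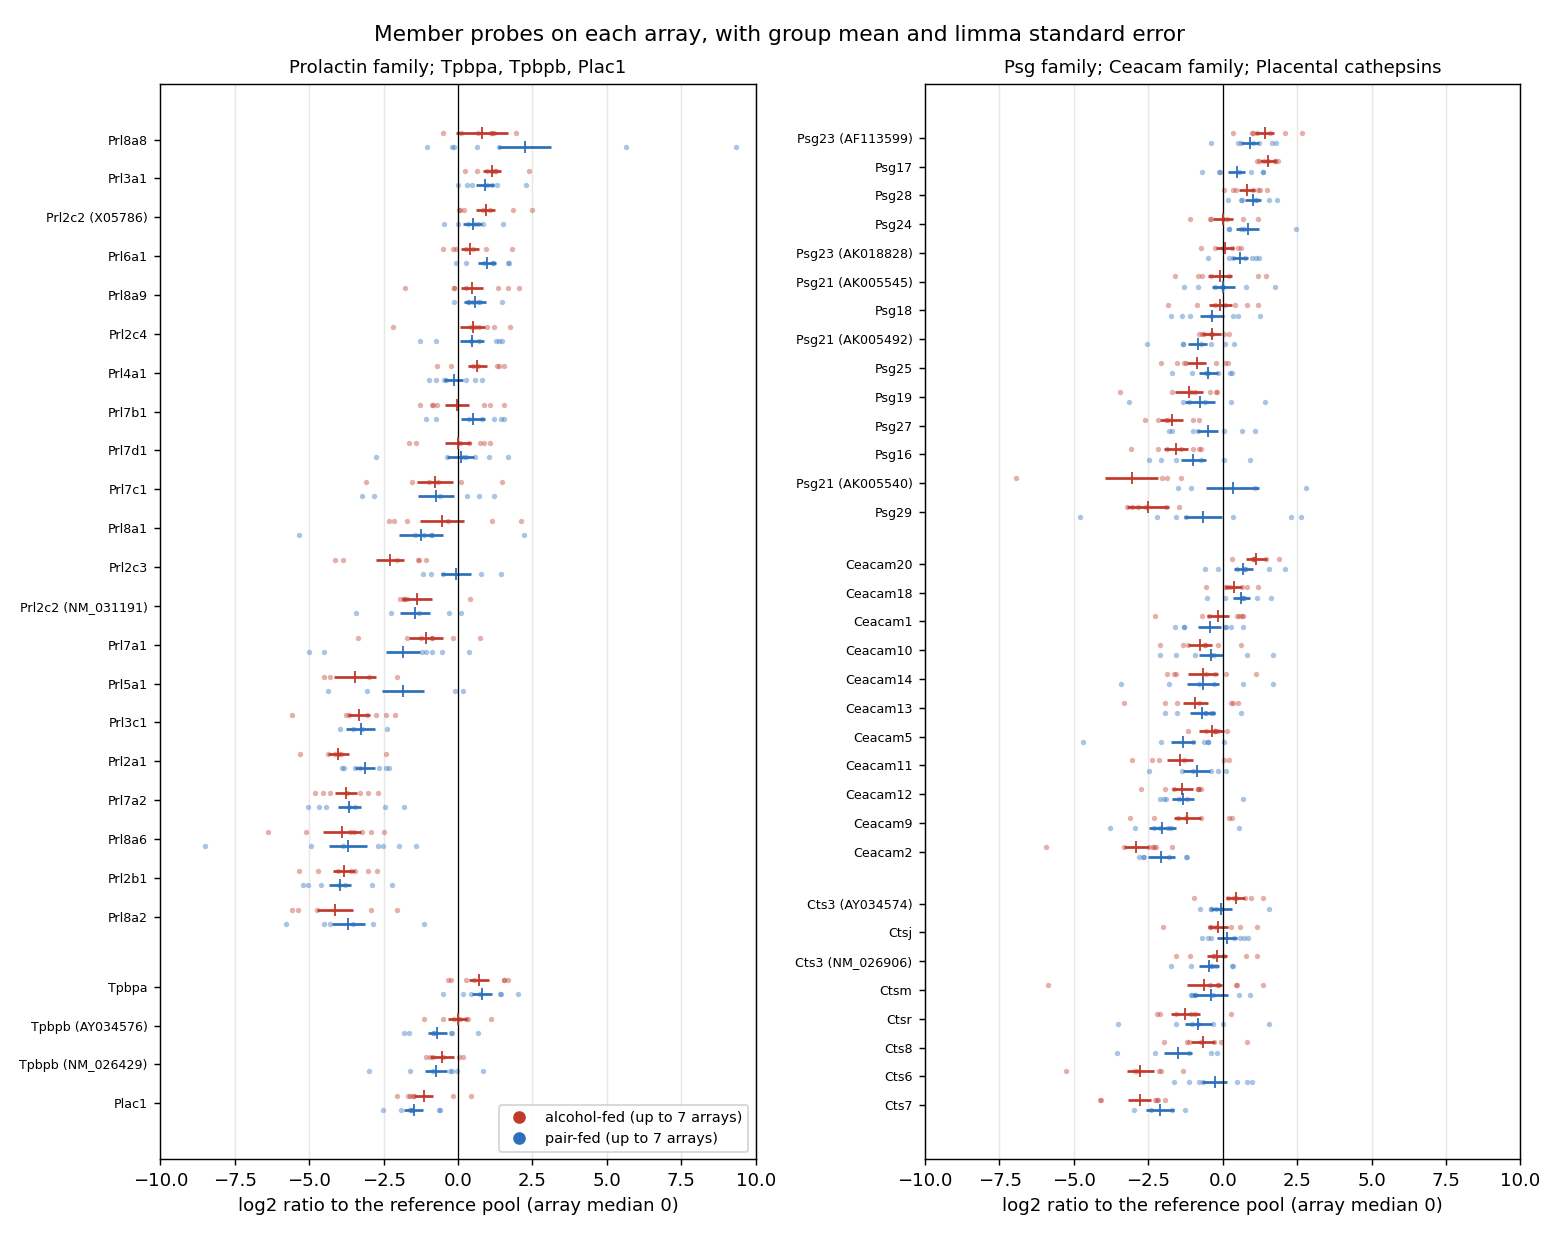
Log2 ratio to the pool for every tested member probe (points, 1 per array with a value, up to 7 per group), with the group mean and its limma standard error (crosses), alcohol-fed above pair-fed. Prl8a2, Prl2b1, Prl8a6, Prl7a2, Prl2a1 and Prl3c1 lie to the left of 0 on every array with a value in both groups, while Prl3a1 and Psg28 lie to the right.

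Some prolactin family genes lay far below the pool. Prl2b1, which encodes PLP-K, had log2 ratios of -5.34, -3.60 and -2.71 on 7 alcohol-fed arrays and -5.22, -3.99 and -2.22 on 7 pair-fed arrays (lowest, median and highest). Every array was below the pool and the groups overlapped widely. Its means were -3.83 ± 0.38 in alcohol-fed samples, 14.3-fold lower than the pool, and -3.96 ± 0.38 in pair-fed samples, 15.6-fold lower (limma SE, adjusted p = 8.55e-07 and 5.88e-07 in limma).

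Prl7a2 showed -4.80, -3.73 and -2.69 on 7 alcohol-fed arrays and -5.03, -3.65 and -1.82 on 7 pair-fed arrays. Again every array was below the pool, with means of -3.76 ± 0.37 in alcohol-fed samples and -3.65 ± 0.37 in pair-fed samples (limma adjusted p = 9.84e-07 and 1.62e-06). Prl7a1, whose promoter stands beside that of Prl7a2 above, averaged -1.07 ± 0.57 in alcohol-fed samples, which did not pass, and -1.83 ± 0.57 in pair-fed samples, which did (limma adjusted p = 0.0295).

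Prl8a6, a PLP-C type gene, had log2 ratios of -6.37, -3.50 and -2.49 on 7 alcohol-fed arrays and -8.51, -2.69 and -1.40 on 7 pair-fed arrays. Pair-fed array 3 gave the lowest of these values, and no array reached the pool's level. The means were -3.89 ± 0.64 in alcohol-fed samples and -3.70 ± 0.64 in pair-fed samples (limma adjusted p = 0.000366 and 0.000609). Of the other PLP-C type genes, Prl8a1 averaged -0.53 and -1.25, Prl8a8 0.81 and 2.24, and Prl8a9 0.46 and 0.56 in alcohol-fed and pair-fed samples. None of those 3 passed. The pair-fed mean of Prl8a8 held values of 9.34 on array 6 and 5.65 on array 7, while the other 5 lay between -1.03 and 1.36.

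Prl8a2 encodes the decidual prolactin-related protein, named for the mother's decidua. Its log2 ratio was -5.58, -4.75 and -2.06 on 5 alcohol-fed arrays and -5.77, -3.91 and -1.14 on 6 pair-fed arrays. The means were -4.14 ± 0.61 in alcohol-fed samples, 17.6-fold lower than the pool, and -3.68 ± 0.56 in pair-fed samples, 12.8-fold lower (limma adjusted p = 0.000243 and 0.000325).

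Prl2a1, which encodes PLP-M, had log2 ratios of -5.31, -4.07 and -2.41 on 6 alcohol-fed arrays and -3.90, -3.28 and -2.33 on 7 pair-fed arrays. The alcohol-fed mean of -4.03 ± 0.35 was 16.3-fold lower than the pool and the pair-fed mean of -3.12 ± 0.32 was 8.71-fold lower (limma adjusted p = 2.91e-07 and 2.70e-06). Prl3c1, which encodes PLP-J, gave -5.58, -3.06 and -2.11 on 7 alcohol-fed arrays and -3.95, -3.37 and -2.37 on the 4 pair-fed arrays with a value. Its means were -3.33 ± 0.37 in alcohol-fed samples and -3.27 ± 0.50 in pair-fed samples (limma adjusted p = 1.59e-05 and 0.000333).

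Prl5a1, which encodes PLP-L, and Prl2c3 were lower in alcohol-fed samples and did not pass in pair-fed samples. Prl5a1 had 4 values in each group, -4.51, -3.66 and -2.04 in alcohol-fed samples and -4.37, -1.57 and 0.15 in pair-fed samples (lowest, median and highest), with means of -3.47 ± 0.71 and -1.84 ± 0.71 (limma adjusted p = 0.00531 and 0.0853). Prl2c3 averaged -2.30 ± 0.47 in alcohol-fed samples and -0.07 ± 0.51 in pair-fed samples (limma adjusted p = 0.00317 and 0.94). Neither gene passed between the diets after adjustment.

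Prl3a1 averaged above the pool and passed in each group. Its log2 ratio was 0.25, 1.15 and 2.38 on 7 alcohol-fed arrays and 0.00, 0.96 and 2.29 on 7 pair-fed arrays. The means were 1.13 ± 0.30 in alcohol-fed samples, 2.19-fold higher than the pool, and 0.92 ± 0.30 in pair-fed samples, 1.89-fold higher (limma adjusted p = 0.013 and 0.0372). Without the 3 deviating arrays neither call was made. Prl6a1, which encodes PLP-B, averaged 0.39 ± 0.30 in alcohol-fed samples and 0.98 ± 0.30 in pair-fed samples, where it passed (limma adjusted p = 0.0303), though not without those arrays.

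The remaining prolactin family members lay nearer the pool. Prl7d1 averaged 0.01 in alcohol-fed and 0.08 in pair-fed samples, Prl7b1, a hormone of invasive trophoblast, -0.02 and 0.51, Prl7c1 -0.79 and -0.74, Prl4a1 0.64 and -0.14, and Prl2c4 0.50 and 0.47. None of these passed in either group. Prl7d1 thus lay near 0 in alcohol-fed samples while the Prl2c3 probe, whose gene has the like promoter shown above, lay at -2.30. The Prl2c4 probe, which may report the same gene as the Prl2c3 probe, lay at 0.50.

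**Figure D3:**
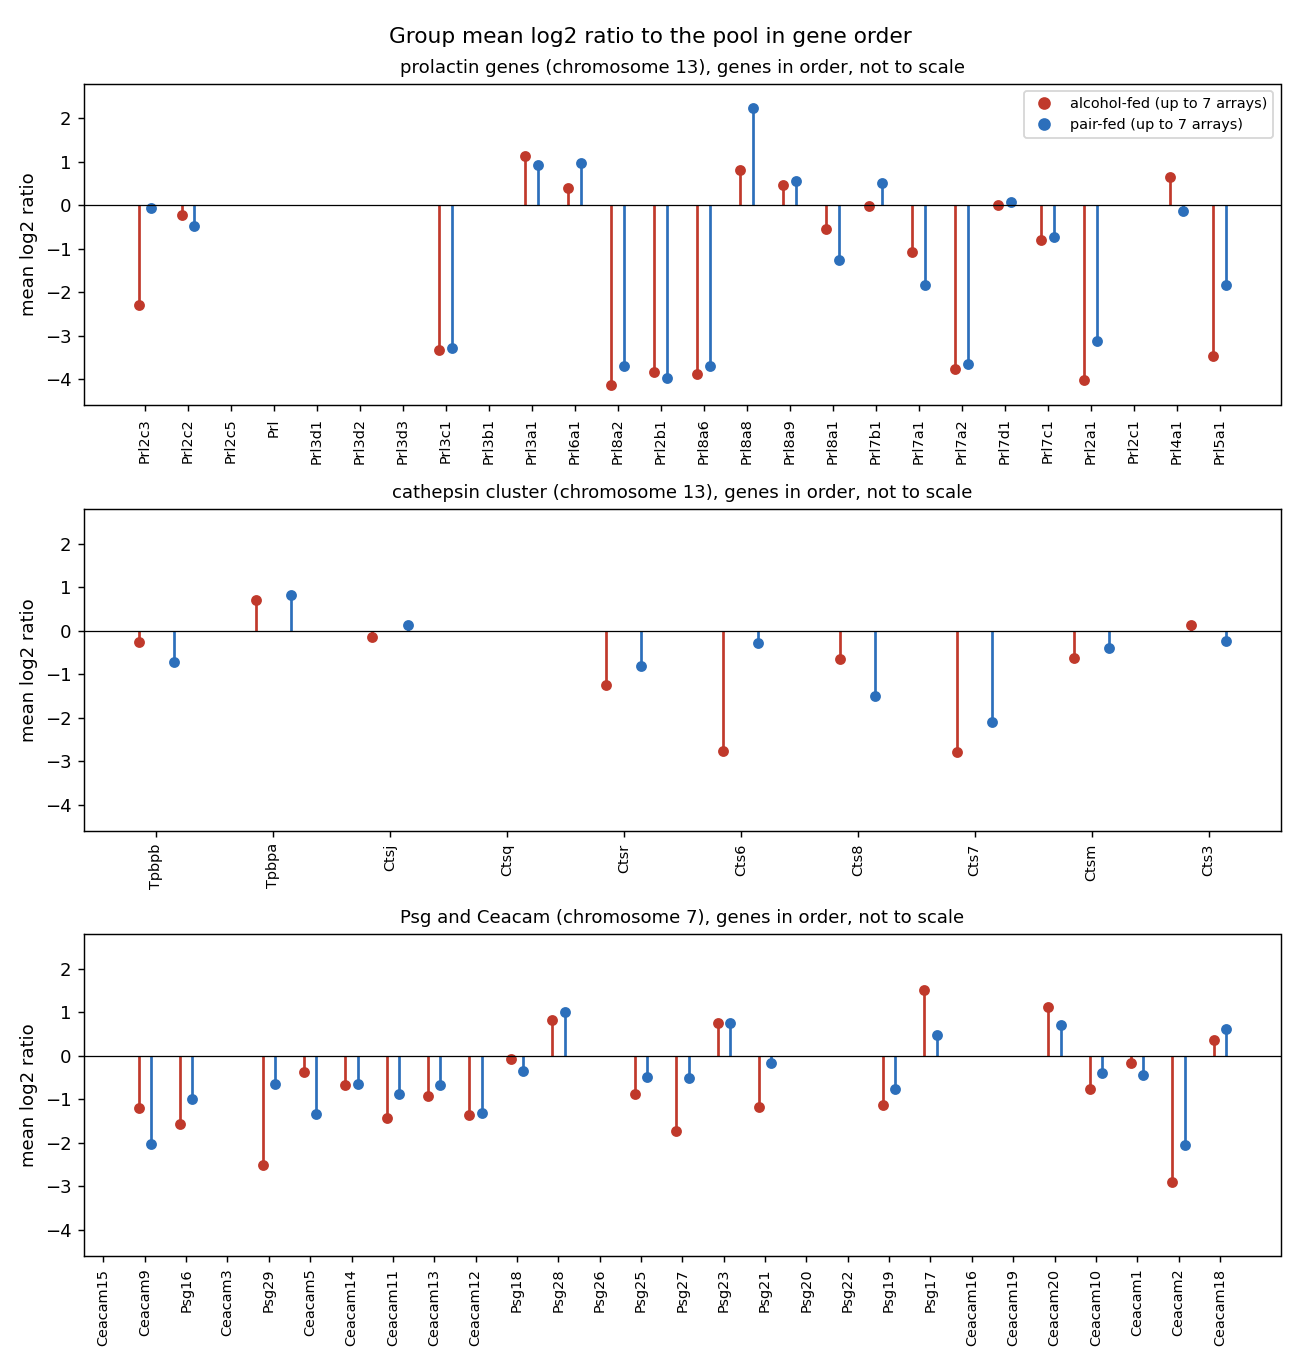
Mean log2 ratio to the pool (vertical axis) of alcohol-fed (red, left of each pair) and pair-fed samples (blue) for genes in chromosome order, not to scale, with probes of a gene averaged; genes without a mark were not among the tested members. Prl8a2, Prl2b1 and Prl8a6 stand side by side near -4, between Prl6a1 and Prl8a8, which are above 0 in both groups.

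Along chromosome 13 the genes with low ratios did not form one block. Prl8a2, Prl2b1 and Prl8a6 are neighbours, but Prl6a1 on one side and Prl8a8 on the other averaged above the pool in both groups, Prl8a8's pair-fed mean resting on 2 arrays. Prl7a2 lies between Prl7a1 and Prl7d1, at -1.07 and 0.01 in alcohol-fed samples. In pair-fed samples these neighbours averaged -1.83 and 0.08, and Prl7a1 was called lower there, as Prl7a2 was. Prl2a1 and Prl5a1 lie further along, and Prl3c1 lies before Prl3a1 and Prl6a1.

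Psg genes divided between the directions. Psg17 averaged 1.52 ± 0.28 in alcohol-fed samples, 2.87-fold higher than the pool (limma adjusted p = 0.000866), and 0.47 ± 0.28 in pair-fed samples, which did not pass (limma adjusted p = 0.23). Psg28 gave 0.04, 1.01 and 1.47 on 7 alcohol-fed arrays and 0.18, 1.07 and 1.82 on 7 pair-fed arrays, so all 14 values were above the pool. Its means were 0.82 ± 0.27 in alcohol-fed samples and 1.00 ± 0.27 in pair-fed samples (limma adjusted p = 0.0347 and 0.0136), and neither call was made without the 3 deviating arrays. Psg18, the gene with the nearest promoter, averaged -0.08 and -0.36 and did not pass.

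Psg23, whose protein is known to bind heparan sulphate, had probes that differed. Its probe AF113599 gave 0.34, 1.14 and 2.67 on 7 alcohol-fed arrays and -0.39, 1.00 and 1.78 on 7 pair-fed arrays, with means of 1.40 ± 0.31 and 0.92 ± 0.31 (limma adjusted p = 0.00419 and 0.0443). The probe AK018828 averaged 0.08 ± 0.29 and 0.59 ± 0.27 and did not pass. Psg23 and Psg21 promoters were 96.4% identical, and the signal of such close copies cannot be assigned with certainty.

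Lower than the pool in alcohol-fed samples were Psg29, Psg27, Psg16 and the Psg21 probe AK005540. These are 28.6% of 14 tested Psg probes, against 15.5% of all probes. No Psg probe was called lower in pair-fed samples, against 13.5% of all probes. The counts are small, and a call in only 1 group is not a difference between the diets. Psg16, also known as a brain-expressed member of the family, had log2 ratios of -3.07, -1.39 and -0.72 on 7 alcohol-fed arrays and -2.49, -1.15 and 0.92 on 6 pair-fed arrays. The means were -1.57 ± 0.39 in alcohol-fed samples and -0.99 ± 0.42 in pair-fed samples (limma adjusted p = 0.00932 and 0.104). Psg29 averaged -2.51 ± 0.69 and -0.65 ± 0.64, Psg27 -1.72 ± 0.39 and -0.51 ± 0.36, and AK005540 -3.06 ± 0.89 and 0.33 ± 0.89 in alcohol-fed and pair-fed samples (limma adjusted p in alcohol-fed samples = 0.0164, 0.00514 and 0.0282). None of the 4 passed between the diets after adjustment. Psg19 averaged -1.14 and -0.75, Psg25 -0.87 and -0.48, and Psg24 0.02 and 0.84 without passing.

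Among Ceacam genes, Ceacam2, the close paralogue of the adhesion molecule Ceacam1, had the lowest mean in alcohol-fed samples, and in pair-fed samples its mean was close to that of Ceacam9. Its ratios were -5.93, -2.33 and -1.70 on 7 alcohol-fed arrays and -2.80, -2.22 and -1.19 on 6 pair-fed arrays, all below the pool. The means were -2.90 ± 0.41 in alcohol-fed samples, 7.47-fold lower, and -2.06 ± 0.45 in pair-fed samples, 4.17-fold lower (limma adjusted p = 9.95e-05 and 0.00408). Ceacam1 itself averaged -0.16 and -0.44 and did not pass. Ceacam12 gave -2.74, -0.83 and -0.74 on 7 alcohol-fed arrays and -2.10, -1.68 and 0.68 on 6 pair-fed arrays, with means of -1.36 ± 0.35 and -1.33 ± 0.38 (limma adjusted p = 0.0111 and 0.0198).

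Ceacam9, expressed by trophoblast, gave -3.10, -1.23 and 0.32 on 7 alcohol-fed arrays and -3.80, -2.10 and 0.54 on 7 pair-fed arrays. Its pair-fed mean of -2.03 ± 0.45 passed (limma adjusted p = 0.00443), while the alcohol-fed mean of -1.19 ± 0.45 did not (limma adjusted p = 0.0621). Ceacam5 passed in pair-fed samples at -1.33 ± 0.42 and averaged -0.36 ± 0.42 in alcohol-fed samples (limma adjusted p = 0.547 in alcohol-fed and 0.031 in pair-fed samples). Ceacam11 passed in alcohol-fed samples at -1.43 ± 0.44 and averaged -0.88 ± 0.44 in pair-fed samples (limma adjusted p = 0.0292 and 0.164). Ceacam20 passed above the pool in alcohol-fed samples, with means of 1.13 ± 0.34 in alcohol-fed samples and 0.70 ± 0.32 in pair-fed samples (limma adjusted p = 0.0249 and 0.122), and was not called without the 3 deviating arrays. Ceacam10, Ceacam13, Ceacam14 and Ceacam18 did not pass, with group means between -0.92 and 0.62.

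Of the placental cathepsins, Cts7 was lower than the pool in both groups. It had log2 ratios of -4.12, -2.24 and -1.92 on 6 alcohol-fed arrays and -2.98, -2.06 and -1.28 on 4 pair-fed arrays. The means were -2.80 ± 0.38 in alcohol-fed samples, 6.94-fold lower, and -2.09 ± 0.47 in pair-fed samples, 4.27-fold lower (limma adjusted p = 0.000165 and 0.00694). Cts6 averaged -2.77 ± 0.45 in alcohol-fed samples and -0.27 ± 0.42 in pair-fed samples (limma adjusted p = 0.000408 and 0.669). Cts8, known for a part in remodelling the maternal arteries, averaged -0.65 ± 0.40 in alcohol-fed samples and -1.51 ± 0.48 in pair-fed samples, where it passed (limma adjusted p = 0.242 and 0.0342). Ctsr averaged -1.26 and -0.82, Ctsm -0.62 and -0.40, and Ctsj -0.15 and 0.13, and none of these passed.

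Plac1 was lower in both groups. Its log2 ratio was -2.06, -1.52 and 0.45 on 7 alcohol-fed arrays and -2.52, -1.59 and -0.60 on 7 pair-fed arrays, with means of -1.15 ± 0.32 and -1.49 ± 0.32 (limma adjusted p = 0.0172 and 0.00383). Tpbpa averaged 0.71 ± 0.34 in alcohol-fed samples and 0.82 ± 0.34 in pair-fed samples without passing. Of its paralogue Tpbpb, probe AY034576 averaged 0.00 and -0.70 and probe NM_026429 averaged -0.53 and -0.73, and neither passed.

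**Figure D4:**
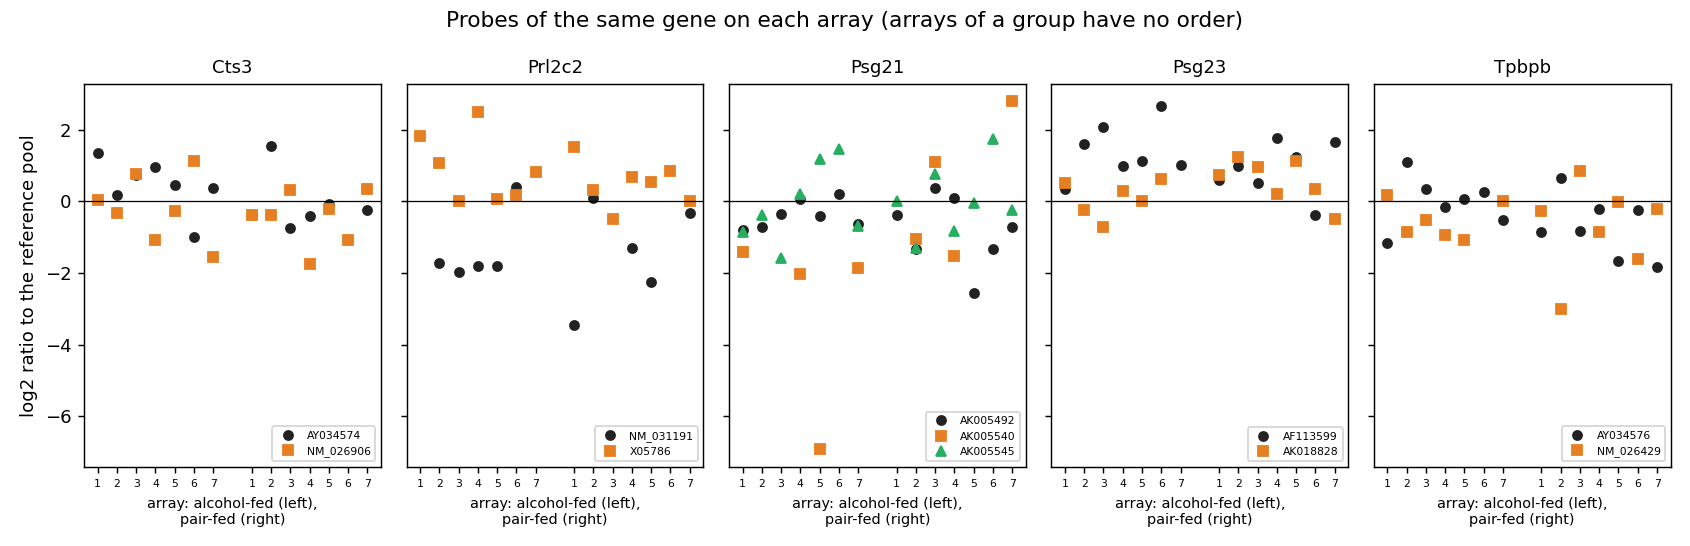
Log2 ratio to the pool on each array for the 5 genes with more than 1 member probe, alcohol-fed arrays on the left of each panel and pair-fed arrays on the right; colours and marks stand for the probes. The Prl2c2 probes lie on opposite sides of 0 on most arrays that have both.

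Probes annotated to the same gene gave a measure of how far an identity can be trusted. For Prl2c2, a proliferin, probe NM_031191 was below probe X05786 on 9 of 10 arrays with both, by a median of 1.99 on the log2 scale, and the probes shared a side of 0 on 2 of 10 arrays. X05786 averaged 0.93 ± 0.32 in alcohol-fed samples, where it passed (limma adjusted p = 0.0447), and 0.49 ± 0.32 in pair-fed samples. NM_031191 averaged -1.38 ± 0.50 and -1.45 ± 0.50 without passing (limma adjusted p = 0.061 and 0.0542). The Cts3 probes shared a side on 5 of 13 arrays, those of Tpbpb on 6 of 13 and those of Psg23 on 9 of 13. Cts3 averaged 0.44 and -0.05 by AY034574 and -0.18 and -0.45 by NM_026906. The probes annotated Prl2c3 and Prl2c4, which may be the same gene by RefSeq, had alcohol-fed means on opposite sides of the pool. Calls on a single probe of these genes are therefore uncertain as to the gene.

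**Figure D5:**
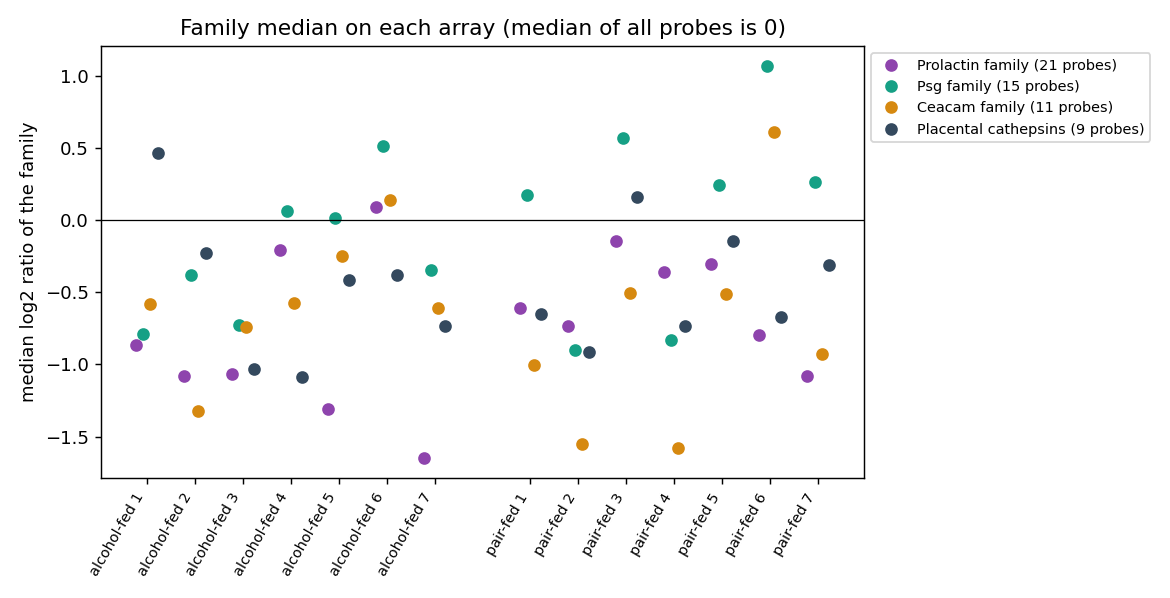
Median log2 ratio of each family's probes on each array (points), with alcohol-fed arrays on the left and pair-fed arrays on the right; the median of all probes is set to 0. Prolactin family medians run from -1.65 to 0.09 on alcohol-fed arrays and from -1.08 to -0.15 on pair-fed arrays, and the groups overlap in each family.

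By array, the median over prolactin family probes lay between -1.65 and 0.09 in alcohol-fed samples (median -1.07) and between -1.08 and -0.15 in pair-fed samples (median -0.61). Psg medians lay between -0.79 and 0.52 in alcohol-fed samples (median -0.34) and between -0.90 and 1.07 in pair-fed samples (median 0.24). For Ceacam genes the ranges were -1.32 to 0.14 and -1.58 to 0.61, and for the cathepsins -1.09 to 0.47 and -0.91 to 0.16. The groups overlapped in each family. Pair-fed array 6 had the most placeholders among the members, 16, and alcohol-fed array 6 the most of its group, 10.

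Genes that act with these families were read from lists of their own, chosen as described with the processing. In the prolactin receptor signalling list, 10 of 12 genes were tested, and 3 were lower and 0 higher than the pool in each group, with 0 changed between the diets. The 3 lower genes are 30.0% of those tested, against 15.5% of all probes in alcohol-fed samples and 13.5% in pair-fed samples. Stat5a, which carries the receptor's signal to the nucleus, averaged -4.86 ± 0.38 in alcohol-fed samples and -4.06 ± 0.38 in pair-fed samples (limma adjusted p = 5.10e-08 and 5.60e-07), and Socs1, an inhibitor of that signal, averaged -2.70 ± 0.55 and -1.70 ± 0.55 (limma adjusted p = 0.0028 and 0.0383). Pituitary prolactin, Prl, averaged -2.20 ± 0.58 in alcohol-fed samples and -0.24 ± 0.54 in pair-fed samples (limma adjusted p = 0.0133 and 0.775), and Cish -0.05 ± 0.31 and -1.37 ± 0.31 (limma adjusted p = 0.919 and 0.00547).

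Of 28 tested trophoblast genes, 5 were lower and 1 higher than the pool in alcohol-fed samples and 9 lower and 0 higher in pair-fed samples. The lower shares were 17.9%, near the 15.5% of all probes, and 32.1%, against 13.5%. Mmp9, a matrix protease of invading trophoblast, averaged -4.78 ± 0.38 and -4.69 ± 0.38 in alcohol-fed and pair-fed samples (limma adjusted p = 5.97e-08 and 7.95e-08). Esrrb, a regulator of trophoblast stem cells, averaged -2.18 ± 0.32 and -2.33 ± 0.32. Among 17 other cathepsins and cysteine protease inhibitors, 4 were lower and 2 higher in alcohol-fed samples and 5 lower and 3 higher in pair-fed samples. The lower shares were 23.5% and 29.4%, and the higher shares 11.8% and 17.6%, beside 15.5% and 13.5% of all probes lower and 8.02% and 7.86% higher. Cst3, a secreted inhibitor of such proteases, averaged -3.66 ± 0.52 and -2.24 ± 0.52, while Ctsc averaged 1.14 ± 0.28 and 1.27 ± 0.28.

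Markers of other tissues were read against the same background, 15.5% lower and 8.02% higher in alcohol-fed samples and 13.5% and 7.86% in pair-fed samples. Of 13 tested decidua genes, 1 was lower and 0 higher in alcohol-fed samples, and 1 lower and 2 higher in pair-fed samples. The lower share was 7.69% in each group, under the background. The higher share in pair-fed samples was 15.4%, over the background. Shares of 13 genes are coarse. Of 13 yolk sac and hepatocyte genes, 4 were lower in alcohol-fed samples and 5 in pair-fed samples, with 0 higher (26.7% and 33.3% of 15 probes lower). In the fetal body list of 14 genes, 8 were lower and 1 higher in alcohol-fed samples and 10 lower and 1 higher in pair-fed samples (53.3% and 66.7% of 15 probes lower). Myog, a regulator of skeletal muscle, averaged -3.61 ± 0.37 and -3.60 ± 0.37 in alcohol-fed and pair-fed samples (limma adjusted p = 1.61e-06 and 1.77e-06). The part of these tissues in the members' values was not tested, and as ratios give no level, none of their markers can be called absent.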

How the data were processed

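Total RNA was labelled by reverse transcription with a Genisphere Cy3/Cy5 kit, per the labels' protocols. The authors deposited 1 processed value per probe and array. These deposited values fit log2 ratios: the table's limits, 16.61 and -9.966, are near the log2 of round numbers. The sources used here give no scanner software, background correction, normalization or build. Exact 0 and 16.61 were set to missing, each array was centred on its median, and probes with at least 4 values in each group were fitted in limma 3.58.1 (R 4.3.3) over all 14 arrays, with contrasts between the diets and of each diet against 0. P-values were adjusted by Benjamini-Hochberg over 20876 probes with a threshold of 0.05, and ± is the limma standard error unless SD is written. Array number limits the precision. Fits were tested on simulated data. Of the probes, 16635 had a single symbol, 113 several and 4834 none; 57 member probes matched RefSeq by gene number and 3 did not. Members and gene lists were chosen with earlier results of these data known. Named were all members past the threshold, the 10 with the smallest p between the diets, genes with several probes, and at most 4 called genes of a list. Alternatives kept each array's median or the placeholders, quantile normalized, scaled or weighted the arrays, or left arrays out; the closing section gives the counts. Leaving out 1 array used a minimum of 3 values.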

Additional observations from a re-analysis of the deposited data

Results flagged for a closer look

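On 8 of 116 groups of member values, 1 array stood far from the other arrays of its group by Dixon's criterion, which chance meets in about 1 in 20 groups. On alcohol-fed array 5, Ceacam2 was at -5.934 and the Psg21 probe AK005540 at -6.934 on the log2 scale, each the lowest of its group. On alcohol-fed array 6, Ctsm was at -5.88 and Prl2c4 at -2.172, the lowest of their groups, and the Prl2c2 probe NM_031191 was at 0.398, the highest. On pair-fed array 2, Ceacam12 was at 0.685 and the Cts3 probe AY034574 at 1.563, and on pair-fed array 6, Psg24 was at 2.451, each the highest of its group. Alcohol-fed array 6 held 3 of the 8, and pair-fed array 6 and alcohol-fed array 6 had the most placeholders among members.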

How the results depend on the processing

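No member passed between alcohol-fed and pair-fed samples under any alternative run. Single-probe calls against the pool held in 964 of 1059 cases and fell short of the threshold in 95, with 0 reversed. Settings in which a probe was no longer tested are not among these cases. Some members without a call gained one in an alternative. Ceacam9 and Ctsr did so in alcohol-fed samples in 6 settings each, and the Prl2c2 probe NM_031191 in 4 settings in each group. Members called against the pool, 24 in alcohol-fed and 18 in pair-fed samples, came to 9 and 11 where only probes with values on all arrays were tested (fewer probes, 32), and to 13 and 9 without the deviating arrays (2 and 3 of the alcohol-fed group, 2 of the pair-fed group). With the minimum then lowered to 3 values, added after those counts were seen, they came to 16 and 10. Over all probes, these settings without the arrays called 2816 (14.0%) and 2888 (13.8%) in alcohol-fed samples, against 4913, and 3189 (15.9%) and 3184 (15.3%) in pair-fed samples, against 4450, so that 9 of 53 (17.0%) and 10 of 58 (17.2%) members were near background there. Leaving out 1 array in turn gave 20 to 26 members in alcohol-fed samples and 11 to 19 in pair-fed samples, the lowest without pair-fed array 4, and 3622 to 5362 and 3222 to 4851 over all probes. Without centring, the median of all probes in alcohol-fed samples moved to 0.136, and to 0.138 with quantile normalization, and the higher share of calls became 44.2% and 48.7%, against 34.1%. Members called in alcohol-fed and pair-fed samples were 22 and 17 without centring, 24 and 18 with quantile normalization, 26 and 18 with scaling, 28 and 20 with array weights, and 23 and 15 with placeholders kept. With replicate number as a block, 0, 23 and 15 members passed between the diets, in alcohol-fed and in pair-fed samples. Deviations of same-numbered arrays from their group means correlated at -0.08 to 0.18, and 2 of 7 matched their own number best. Such weak correlations show no pairing by number but cannot exclude it. The cause of these shifts was not tested. Array signal over background is unknown, so depth could not be weighed.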
